A study of Arabidopsis thaliana with 4 samples.

Results

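The genes described here encode the proteins of the cytosolic small (40S) ribosomal subunit of Arabidopsis thaliana. They were chosen from a list of 60 loci for 27 proteins, and a locus was used if the array held a probe set paired with that gene alone. This was so for 34 genes of 20 proteins, each with 1 probe set, among 13513 single-gene probe sets and 22746 probe sets in all that were no controls. A further 14 listed loci were covered only by probe sets shared between several genes and are given apart, and 12 had no paired probe set and are not analysed here. RNA came from root tips of seedlings kept for 4 days at 23 °C in continuous light on MS medium. Wild type and sol2, a mutant of the receptor-like kinase gene SOL2 (also called CORYNE), were measured on 2 arrays each and compared to find which transcripts differ at the root apex without normal SOL2. The sources used here do not give the sol2 allele, the background accession or whether replicates were separate cultures.

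The 40S subunit binds the messenger RNA and holds the decoding centre, where codons are matched with transfer RNAs; with the large 60S subunit it forms the translating ribosome. Its proteins surround 1 ribosomal RNA and are placed on a head, a body and a platform. Arabidopsis carries several near-identical genes (paralogues) for almost every ribosomal protein, and dividing root tip cells are known for high demand for ribosomes. The protein assignments used here (S2, S3a and so on) are the standard Arabidopsis nomenclature; the gene tables used here give most of these genes by locus only.

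Nearly all of the 40S protein genes gave a clear signal in root tips of both genotypes. Signals are linear array units, and the 33 genes above the filter on low values had means between 473.6 and 20331, with a median of 10329. Probe sets differ in how strongly they bind, so these values do not order the genes by amount of RNA. Paralogues are therefore compared through their change between genotypes.

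AT5G59240, a gene for S8, gave 405.3 and 554.6 on wild type arrays 1 and 2 and 442.0 and 492.5 on sol2 arrays 1 and 2, so that the genotypes overlapped. AT2G39590, a gene for S15a, gave 21.2 and 7.1 in wild type against 6.3 and 1.0 in sol2. All 4 of its signals were below 34.1, the brightest signal of the 27 probe sets for bacterial control transcripts. It was the only member below the filter, the 40th percentile of mean signal, and no difference is given for it. S15a is a protein of the body of the subunit. Its other listed genes had no paired probe set.

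**Figure D1:**
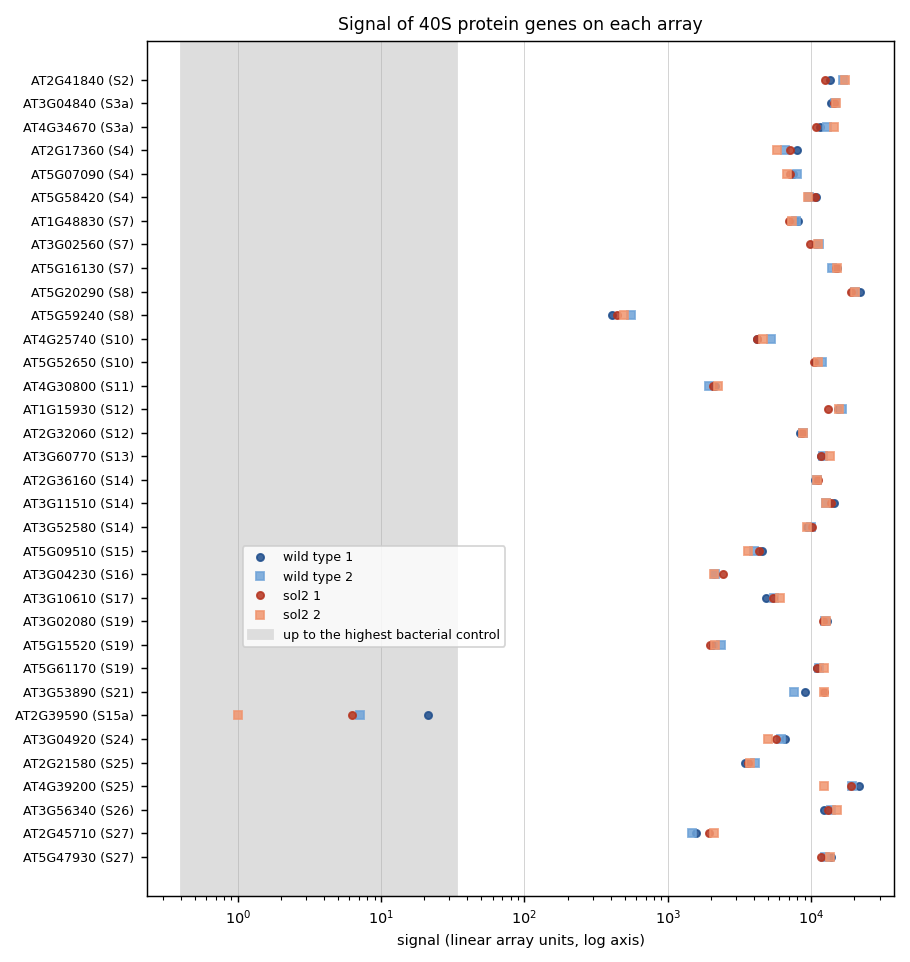
Signal (linear array units on a log axis) of the 34 40S protein genes with a single-gene probe set; each point is 1 array, and the grey band ends at 34.1, the highest bacterial control. For most genes the 4 arrays lie close together, and AT2G39590 alone lies inside the band.

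No 40S protein gene passed the test between sol2 and wild type. Of 33 tested, 0 were called higher and 0 lower at an adjusted p under 0.05 (limma, Benjamini-Hochberg over 13648 probe sets), where the test called 0.945% of all tested probe sets higher and 0.3% lower. The smallest adjusted p was 0.156. At an unadjusted p under 0.05 (limma) 2 members were higher and 0 lower, against 5.14% and 3.76% of all tested probe sets. The median log2 difference (sol2 minus wild type) was -0.03, with 14 genes above 0 and 19 below, and 0.0043 over all tested probe sets. The difference was smaller than 0.2 on the log2 scale for 29 of the 33 genes. In whole root tips, fewer cells of a type and less RNA per cell cannot be told apart.

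The intervals show what size of change the 4 arrays leave possible. The 95% interval of the log2 difference lay within 1 on either side of 0 (a 2-fold change) for all 33 tested genes, and within 0.5 for 26. Its half-width ran from 0.27 to 0.53. These are model intervals from 2 arrays per genotype, which assume that each probe set varies like others of similar signal. Whether signals of this brightness still follow the amount of RNA was not tested.

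**Figure D2:**
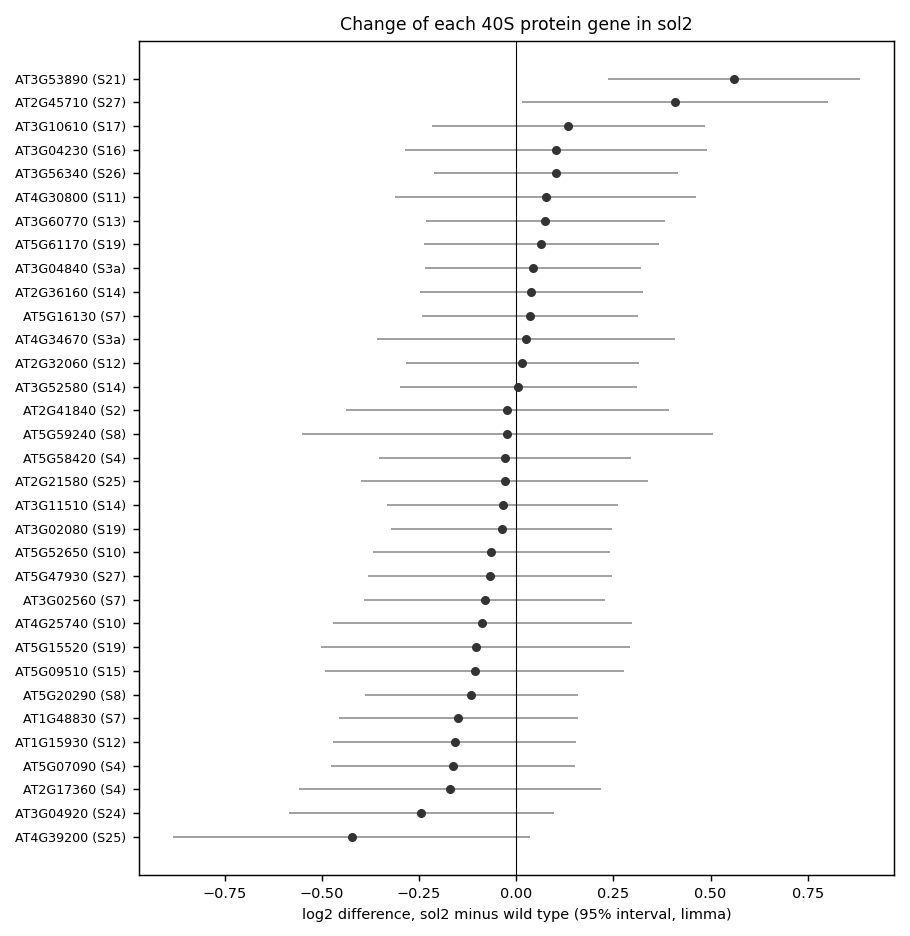
Log2 difference between sol2 and wild type (points) with its 95% interval from limma (bars) for the 33 40S protein genes above the filter. The intervals of AT3G53890 (S21) and AT2G45710 (S27) lie above 0, and all others cross it.

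AT3G53890, a gene for S21, showed the largest difference of the set. S21 is a small eukaryote-specific protein on the body, next to S2 and Sa. Its signal was 9079 and 7643 in wild type against 12286 and 12308 in sol2. Both sol2 arrays lay above both wild type arrays, and they differed from each other far less than the wild type arrays did. The mean was 8361 ± 1015 in wild type and 12297 ± 15.3 in sol2 (SD, n = 2 each), or 1.47-fold, with a log2 difference of 0.56 ± 0.14 (SE, limma, unadjusted p = 0.00405, adjusted p = 0.156). The gene was called in 2 of 12 alternatives: without wild type replicate 1, at a log2 difference of 0.68 (adjusted p = 0.0137, limma) in a fit that called 3.08% of all tested probe sets higher, and with the replicate number as a block (adjusted p = 0.000812), where 4.84% were higher.

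AT2G45710, a gene for the zinc-finger protein S27, was the other member with an unadjusted p under 0.05. It gave 1561 and 1485 in wild type against 1940 and 2117 in sol2, again with no overlap. The means were 1523 ± 53.5 and 2028 ± 125 (SD, n = 2), or 1.33-fold, and the log2 difference was 0.41 ± 0.17 (SE, limma, unadjusted p = 0.0434, adjusted p = 0.524). It was called under none of 12 alternatives, with adjusted p between 0.1098 and 0.9999. The next 4 genes toward higher signal in sol2 had log2 differences from 0.08 to 0.13. AT3G10610 (S17) had 4870 and 5550 in wild type against 5414 and 6016 in sol2. AT3G56340 (S26, a protein at the messenger RNA exit) had 12368 and 13824, then 13088 and 15068. For both, the genotypes overlapped, and sol2 replicate 2 was the highest array. AT3G04230 (S16) had 2095 and 2119 in wild type against 2423 and 2117 in sol2, while AT4G30800 (S11) had 2120 and 1940, then 2056 and 2225. These ranges overlapped as well.

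On the other side, AT4G39200, a gene for S25 of the head, had the most negative difference. Its signal was 21401 and 19346 in wild type against 18862 and 12201 in sol2, so the ranges did not overlap, but 1 array, sol2 replicate 2, stood well below the others. The means were 20373 ± 1453 and 15531 ± 4710 (SD, n = 2), with a log2 difference of -0.42 ± 0.20 (SE, limma, adjusted p = 0.622). The difference was -0.74 without sol2 replicate 1 (adjusted p = 0.0379, where 0.447% of all tested probe sets were called lower) and -0.11 without sol2 replicate 2. With the replicate block the adjusted p was 0.0157, and 3.39% were called lower. The 3' control probe set of ubiquitin followed the same order of arrays, with 17527 and 16345 in wild type against 14282 and 10478 in sol2; its part in the result was not tested.

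The other genes with lower signal in sol2 differed by less. AT3G04920, for S24 of the body, had 6552 and 6140 in wild type against 5724 and 5009 in sol2 (log2 -0.24 ± 0.15, adjusted p = 0.788, limma). AT5G07090, for S4, had 7479 and 8005, then 7092 and 6737, and AT1G48830, for S7, 8039 and 7903, then 7006 and 7379. In these 3 genes the genotypes did not overlap, although no difference exceeded its error enough to pass. AT2G17360, also for S4, had 7937 and 6564 in wild type against 7106 and 5794 in sol2, and AT1G15930, for S12 of the head, 15315 and 16486, then 13056 and 15521. Both of these overlapped between genotypes. The log2 differences of the last 4 genes ran from -0.17 to -0.15.

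Some genes had arrays that separated by genotype. Both sol2 arrays lay above both wild type arrays for 3 of the 33 tested genes (AT3G53890, AT2G45710 and AT2G36160, for S14) and below for 5 (AT4G39200, AT3G04920, AT5G07090, AT1G48830 and AT5G20290, for S8). Over all tested probe sets the shares were 17.5% and 18.6%. In AT2G36160 the separation was small, with 10657 and 10934 in wild type against 11161 and 11015 in sol2. AT5G20290 gave 22065 and 20226, then 18824 and 20210.

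Proteins of the head and those of the body and platform gave similar pictures, in a grouping made after the values were known. Of 24 listed loci of head proteins 12 were tested, with a median log2 difference of -0.05 and a range from -0.42 to 0.13. Of 36 listed loci of body and platform proteins 21 were tested, with a median of -0.02 and a range from -0.24 to 0.56. Both genes with an unadjusted p under 0.05 (limma) belonged to the body and platform, the larger group with 21 of the 33 tested genes. Over all tested probe sets 5.14% were higher at this p. No test of the difference between these groups was made.

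Shared probe sets added 9 measurements for genes too alike to be told apart on the array. The set paired with AT1G58380 (XW6), a gene for S2, together with AT1G59359, AT1G58983 and AT1G58684, had the clearest separation. S2 lines the channel through which messenger RNA enters the subunit. The signal of this set was 13258 and 13982 in wild type against 19096 and 19928 in sol2, so that the sol2 arrays were both higher by more than the spread within either genotype. The means were 13620 ± 512 and 19512 ± 588 (SD, n = 2), or 1.43-fold, and the log2 difference was 0.52 ± 0.12 (SE, limma, unadjusted p = 0.0024, adjusted p = 0.111). The set was called without wild type replicate 2 (log2 0.56, adjusted p = 0.0217, in a fit that called 6.39% of all tested probe sets higher) and with the replicate block (adjusted p = 0.0015). The signal cannot be assigned to 1 of the 4 loci. The S2 gene with a probe set of its own, AT2G41840, gave 13501 and 16559 in wild type against 12589 and 17210 in sol2 (log2 -0.02 ± 0.18).

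The set shared by the S3 genes AT3G53870 and AT2G31610 went the other way, with 11431 and 13819 in wild type against 11051 and 8902 in sol2 (log2 -0.34 ± 0.16, adjusted p = 0.628, limma). S3 is a head protein at the messenger RNA entry. The genotypes did not overlap, and sol2 replicate 2 was again the lowest array. The other 7 shared sets, for S16, S17, S20, S23, S26 and S28, had log2 differences between -0.13 and 0.04. The S28 genes AT5G03850 and AT3G10090 were covered by 2 shared sets, which gave -0.01 and -0.11. None of the 9 passed the test, and with them added the median over 42 probe sets was -0.03.

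**Figure D3:**
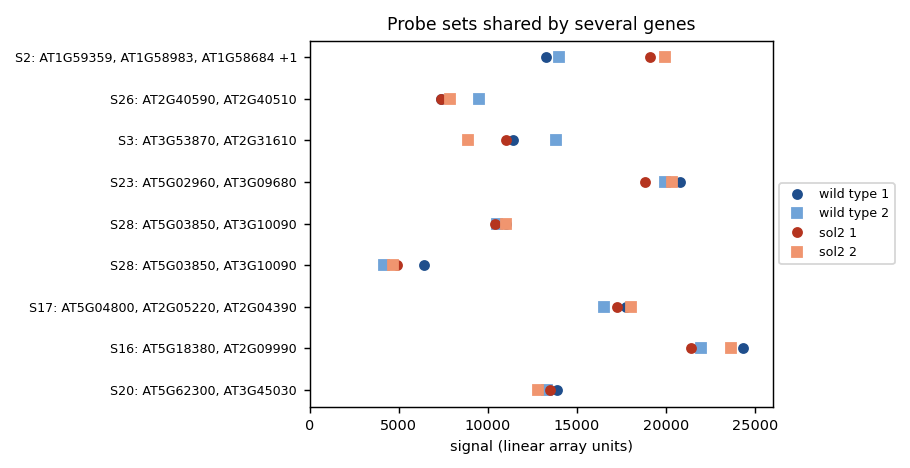
Signal (linear array units) of the 9 probe sets shared by several genes, at least 1 of which is a listed 40S protein locus; each point is 1 array. In the S2 set both sol2 arrays (19096 and 19928) lie above both wild type arrays (13258 and 13982), in the S3 set both sol2 arrays lie below both wild type arrays, and in the other 7 sets the genotypes overlap.

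The balance between paralogues was followed as the log2 ratio of their signals within each array. The pairing of a probe set with a single gene comes from the annotation. Whether such a set also binds RNA of another paralogue was not tested. There were 10 proteins with 2 or more tested genes, which gave 18 pairs. The ratio changed by less than 0.2 on the log2 scale between genotypes in 16 of them. In 5 pairs the genotypes did not overlap, while 33.7% of the 510 pairs of members of different proteins did so. With 2 arrays per genotype the exact permutation test (two-sided) cannot give a p below 0.333, so it could call no pair. Each change is given with its SE, which comes from the arrays of that pair alone and is itself uncertain.

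The S27 pair shifted most. The log2 ratio of AT2G45710 to AT5G47930 was -3.14 and -3.05 in wild type against -2.58 and -2.66 in sol2. The change was 0.48 ± 0.06 (SE), while the limma SEs of the differences of AT2G45710 and AT5G47930 were 0.17 and 0.14. AT5G47930 itself gave 13857 and 12445 in wild type against 11701 and 13432 in sol2, with overlap. In the S25 pair the change of 0.39 ± 0.39 was no larger than its error. Its ratio of AT2G21580 to AT4G39200 was -2.62 and -2.24 in wild type against -2.38 and -1.70 in sol2. AT2G21580 itself stayed between 3462 and 4075 on all 4 arrays, while AT4G39200 was low on sol2 replicate 2.

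The remaining pairs without overlap had smaller changes. They were S7 (AT1G48830 to AT5G16130, -0.18 ± 0.05), S12 (AT1G15930 to AT2G32060, -0.17 ± 0.11), S19 (AT5G15520 to AT5G61170, -0.17 ± 0.07) and S4 (AT2G17360 to AT5G58420, -0.14 ± 0.08). AT5G16130 gave 15153 and 14072 in wild type against 14905 and 15032 in sol2, and AT2G32060 gave 8409 and 8759, then 8591 and 8758. The S19 genes AT5G15520 and AT5G61170 gave 2057 and 2364, then 1961 and 2143, and 10905 and 11387, then 10981 and 12371. AT5G58420 gave 10870 and 9647, then 10683 and 9436. In each of these 5 genes the genotypes overlapped. The S3a pair (AT3G04840 to AT4G34670) and the S10 pair (AT4G25740 to AT5G52650) changed by 0.02 ± 0.19 and -0.02 ± 0.08, and the 3 pairs within S14 by 0.07 or less.

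**Figure D4:**
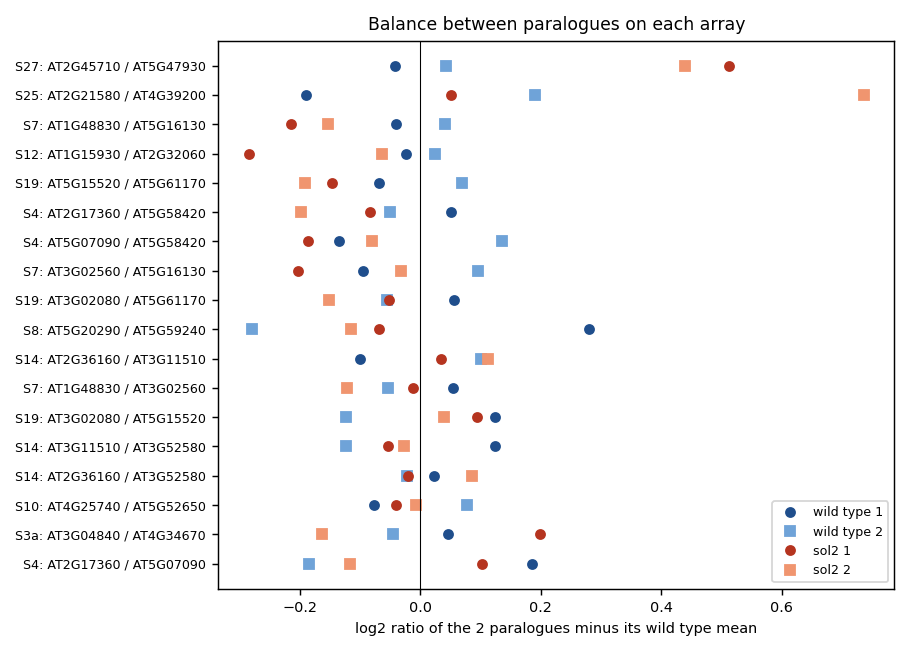
Log2 ratio of the signals of 2 paralogues, minus its mean in wild type, on each of the 4 arrays, for the 18 pairs ordered by the size of the change. The S27 pair stands apart on both sol2 arrays, the S25 pair on sol2 replicate 2 alone, and most other pairs lie within 0.2 of 0.

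Further small subunit genes outside the list of 60 gave 6 more pairs, formed after the values were seen. In 4 of them the genotypes did not overlap, against 33.7% of the 510 pairs of members of different proteins. Some of the 6 pairs share a gene, so they are not independent. The SE of each ratio again comes from that pair alone. AT5G27700, the second S21 gene, had 17195 and 17399 in wild type against 16965 and 20271 in sol2 (log2 0.10 ± 0.13), and the ratio of AT3G53890 to it was higher in sol2 by 0.46 ± 0.18 (SE) without overlap. The S24 genes differed in direction, although neither passed the test. AT5G28060 had 6592 and 6162, then 7323 and 7188 (log2 0.19 ± 0.14, adjusted p = 0.855, limma). The ratio of AT3G04920 to AT5G28060 was lower in sol2 by a log2 difference of -0.43 ± 0.08. In S9, a body protein of the messenger RNA entry, AT5G15200 had 20647 and 19207, then 18099 and 18838, and AT5G39850 had 543.7 and 759.9, then 1294 and 1444. The change of their ratio was -1.18 ± 0.29, without overlap. In S25 the ratio of AT2G21580 to AT4G34555 changed by -0.23 ± 0.13 without overlap, and that of AT4G39200 to AT4G34555 by -0.62 ± 0.50 with overlap. The ratio of the S2 genes AT2G41840 and AT3G57490 changed by 0.03 ± 0.29, also with overlap. AT5G39850 was 2.10-fold higher in sol2 (log2 1.07 ± 0.22, SE, limma, adjusted p = 0.0771). It passed without wild type replicate 1 (log2 0.83), without wild type replicate 2 (log2 1.30) and with the replicate block, and with the last 2 so did AT1G23410, for the ubiquitin fusion protein S27a (1434 and 1955, then 2606 and 2491; log2 0.60 ± 0.20, adjusted p = 0.326; log2 0.82 without wild type replicate 2, but 0.38 when wild type replicate 1 was left out).

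Across these 34 further loci, which include the scaffold protein RACK1, 11 had a single-gene probe set and 9 lay above the filter. None passed, and the median log2 difference was 0.19, with 6 above 0 and 3 below. At an unadjusted p under 0.05 (limma) 2 were higher and 0 lower, against 5.14% and 3.76% of all tested probe sets.

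The large subunit gave the only call among ribosomal protein genes of both lists. Of 121 listed 60S loci 75 had a single-gene probe set and 72 were tested, with a median log2 difference of -0.01 (35 above 0 and 37 below), close to that of the 40S genes. AT3G55170, 1 of several genes for L35, rose from 314.9 and 234.2 in wild type to 1125 and 1244 in sol2, or 4.31-fold (log2 2.05 ± 0.22, SE, limma, adjusted p = 0.00493). No other 60S gene passed, and 0 were called lower. Over all tested probe sets the test called 0.945% higher and 0.3% lower. At an unadjusted p under 0.05 (limma) 3 large subunit genes were higher and 2 lower, against 5.14% and 3.76% of all tested probe sets. The range of the 60S differences, -0.48 to 2.05, was wider than that of the 40S members, -0.42 to 0.56. It spans 72 genes against 33. Both of its ends came from probe sets that were dim beside most 40S members, AT3G28500 (signals from 107.9 to 234.6) and AT3G55170.

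Factors that assemble ribosomes or signal to them were thinly measured: 7 of 25 loci had a single-gene probe set, all above the filter, and none passed. The list includes TOR, the kinase that couples nutrients to translation, and the kinases of S6; of its signalling genes only RAPTOR1, a partner of TOR, was measured, at 381.9 and 466.0 in wild type against 496.6 and 416.9 in sol2. AT3G05060, a nucleolar protein of the NOP58 type, had 1132 and 1874, then 2042 and 2281 (log2 0.56 ± 0.25, adjusted p = 0.579, limma). AT3G15460, of the BRX1 type, had 460.0 and 756.6, then 721.6 and 781.8 (log2 0.34 ± 0.26, adjusted p = 0.876). Both passed without wild type replicate 2, at log2 differences of 0.92 and 0.69, and in both wild type replicate 1 was the low array. Without that array the differences were 0.20 and -0.01. AT3G05060 also passed with the replicate block (adjusted p = 0.00874).

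**Figure D5:**
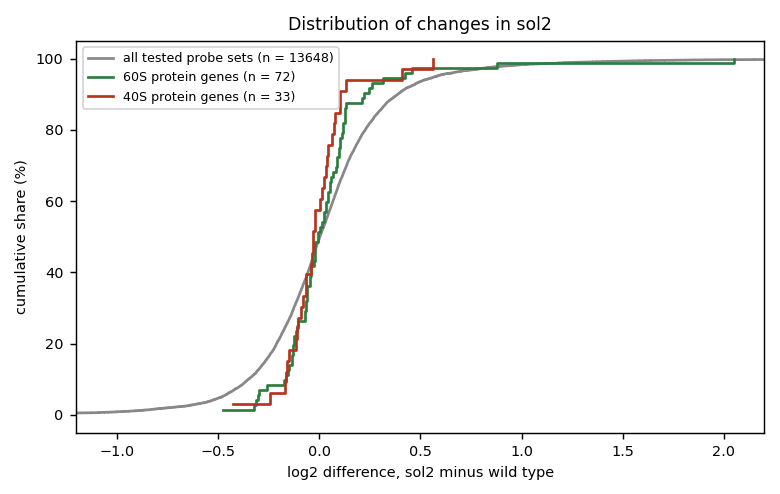
Cumulative share (%) of log2 differences between sol2 and wild type for 33 40S protein genes, 72 60S protein genes and all 13648 tested probe sets; the axis is limited to the central range. The curves of both ribosomal sets are steeper than that of all probe sets and rise through their medians near 0.

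The arrays differed little in the summed signal of the 34 genes, which was 314001 and 315534 in wild type against 303041 and 314373 in sol2. Relative to each gene's mean over the arrays, the median log2 deviation of the tested members was -0.04 and 0.02 in wild type against -0.04 and 0.02 in sol2 for replicates 1 and 2, so replicates of 1 number shared their direction. The median absolute log2 difference between replicates, which are single arrays, was 0.13 in each genotype. Between genotypes it was 0.08, but there means of 2 arrays are compared, and means vary less than single arrays. For the 446 tested probe sets with mean signals in the central range of the members (5462 to 12859) it was 0.19 in wild type, 0.14 in sol2 and 0.11 between genotypes. The median log2 deviation of these sets was 0.06 and -0.04 in wild type against -0.02 and 0.0009 in sol2, so wild type went the other way there. Over all tested probe sets it was -0.05 and 0.05 in wild type against -0.004 and 0.02 in sol2.

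Facts of the arrays bear on these values as follows. Array medians lay between 142.7 and 160.75. Over all tested probe sets the median absolute log2 difference was 0.294 between wild type arrays and 0.182 between sol2 arrays, and wild type replicate 2 lay nearer to the sol2 arrays (0.220 and 0.189) than to wild type replicate 1. The 3' to 5' ratio of actin control probe sets, a sign of RNA quality, was 8.45 and 24.5 in wild type against 11.6 and 36.9 in sol2. That of ubiquitin was 3.02 and 3.87 in wild type against 2.46 and 2.29 in sol2, and that of GAPDH lay between 0.97 and 1.07 on all 4 arrays. Of 15 root tip markers 3 had a single-gene probe set and none was at 0, with summed signals of 2022 to 2736 in wild type and 1670 to 2102 in sol2. PLT1, PLT2, SHR, SCR and WOX5 were not analysed here. UPB1, a regulator of the transition to elongation, had 961.9 and 650.3, then 526.2 and 380.3 (log2 -0.80 ± 0.26, adjusted p = 0.326, limma; -1.07 and called without wild type replicate 2, -0.52 and not called without wild type replicate 1, and called with the replicate block). EXPA7, of root hairs, gave -0.14, and JKD, a regulator of ground tissue patterning, 0.02. Of 12 green tissue markers 2 had a single-gene probe set, with summed signals of 365.4 to 383.2 in wild type and 242.1 to 254.9 in sol2. RCA gave a log2 difference of -0.67 (limma, adjusted p = 0.372, or 0.0453 with the replicate block) and PSBW -0.19. The part of these markers and of RNA quality in the values above was not tested.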

How the data were processed

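Affymetrix GeneChip arrays were hybridised with biotinylated cRNA from 4 samples. The deposited values are linear probe-set intensity values, for which GCOS is named in the submitters' processing notes, with algorithm and scaling target not given. Each array, trimmed to its middle 96%, averaged 500.1, so no further scaling was applied. No depth applies to arrays, and their number limits the precision.

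Genes came from the platform annotation, matched through gene identifiers to the RefSeq table of the TAIR10.1 assembly. Of 22810 probe sets 64 controls were left out. Values were analysed as log2(signal + 18.4), 18.4 being the 20th percentile of all values, and fold changes on this scale understate those of dim genes. The 13648 probe sets at or above the 40th percentile of the mean were fitted with limma 3.58.1 in R 4.3.3 (genotype only, intensity trend, two-sided, Benjamini-Hochberg). The fit was tested on simulated data. Exact permutation tests used scipy 1.17.1, and figures matplotlib 3.10.9 in Python 3.11.15. P-values measure the spread between these samples, which may be technical.

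Values per array are given for members with an unadjusted p under 0.05, the 6 largest differences each way, the 6 pairs with the largest change of ratio, members below the filter and, of other lists, called genes or the 2 largest differences; further genes were named after their values were seen. The members and lists were chosen with earlier results of these data known. Promoter motifs were planned but no sequences were used here. Alternatives covered normalization, pseudocount, filter, prior variance, a replicate block, the threshold and each array left out.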

Additional observations from a re-analysis of the deposited data

How the results depend on the processing

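In 12 alternative fits, 1 member was called higher without wild type replicate 1 and with the replicate block, 1 lower without sol2 replicate 1 and with the replicate block, and 0 in the other fits, at an adjusted p under 0.10, or with shared probe sets added after seeing the data. With single arrays left out, members called higher ranged from 0 to 1, members called lower from 0 to 1, pairs of paralogues without overlap from 8 to 14 and 60S genes called from 1 to 2; with 3 arrays, 58.8% to 73.7% of the pairs of different proteins did not overlap either. These fits take the spread of the lone array from the other genotype. The block fit leaves 1 degree of freedom per probe set, so its p-values rest mainly on the spread shared across probe sets. With the replicate block 3 60S genes were called and 11 of 18 pairs shifted in the same direction for both replicate numbers, as did 62.4% of the pairs of different proteins. With the 6 added pairs, 9 of 24 pairs did not overlap, beside 33.7% of the pairs of different proteins in the main fit. The median log2 difference of the members stayed between -0.07 and 0.01, beside a spread between replicates of SD 0.043. With an array left out, the move of the median comes from that same spread, so the comparison is no measure of stability. Of 33 members, 4 changed sign with equal array medians, 1 with quantile normalization and 5 or 6 with an array left out, none of them called. Replicate numbers are shared by the genotypes but no label calls them pairs; replicate differences (1 against 2) correlated between genotypes at 0.441 across all tested probe sets and 0.559 across the 33 members, which are not independent. No member had more than 1 single-gene probe set, so using all of a member's probe sets changed nothing. With 2 arrays per genotype, changes under about 0.3 on the log2 scale could not be shown, the median half-width of the intervals being 0.31. These intervals are not adjusted for the number of probe sets tested, and larger changes also failed the adjusted test. AT3G53890, at 0.56, had an adjusted p of 0.156 (limma) in the main fit.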
